A study of Mus musculus with 13 samples.

Results

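Cultured control oligodendrocyte progenitor cells (OPCs) from the brainstem were compared with those from the dorsal telencephalon by ATAC-seq, in which the transposase Tn5 inserts into open chromatin. The members were the 3 libraries labelled Control brainstem and the 3 labelled Control for cortex tissue, 6 of the 13 libraries of the series, and each group held cultures 51, 59 and 61. The telencephalon dissection described in the labels took cortex, corpus callosum and hippocampus. Pups of litters from an AMGFAP-Cre by K27M cross (named hGFAP-Cre in the study, a Cre driven by a human GFAP promoter) were dissected at postnatal day 5 to 7, on an FVB background, and tissue was pooled by region and genotype, so a library is a culture from several pups. The study describes its littermate controls as lacking Cre, so that the loxP-STOP-loxP cassette before the K27M allele stays in place and that allele is not expressed. BSL1 lectin plates removed endothelial cells and microglia, an antibody to PDGFRα captured the OPCs, and all groups grew in proliferation medium with forskolin, CNTF, neurotrophin-3 and PDGF, without differentiation. The comparison asks where accessible chromatin differs between brainstem and telencephalon OPCs of these littermate controls. The other libraries, 3 K27M brainstem and 4 K27M telencephalon, are used only where a regional difference found in controls was looked up in cultures that had not chosen it.

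OPCs are the dividing precursors of myelinating oligodendrocytes. They arise in sequence from several germinal zones along the neural tube, and the position of a progenitor is recorded by transcription factors. Hox genes pattern the hindbrain and spinal cord and are silent in the normal forebrain, while Emx2, Otx1 and Nr2e1 act in forebrain progenitors. Irx genes encode homeodomain factors that pattern several domains, among them midbrain and hindbrain.

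The readout was the list of broad peaks called in each library, without read counts, so sequencing depth is unknown and a peak that is missing was not called at that depth, which does not show closed chromatin. A promoter was taken as 2 kb before to 1 kb after any transcript start of a gene, and a distal peak as one that met no promoter. A promoter or distal peak is said to separate the regions when all 3 libraries of one region had a peak and none of the other did. Lists held 31990, 31153 and 52466 peaks in brainstem cultures 51, 59 and 61, and 36054, 16879 and 45322 in telencephalon cultures 51, 59 and 61 (two-sided exact permutation test, p = 0.6, n = 3 and 3). Because detection follows list length, every comparison was also made at equal number, with each list reduced to its 16879 most significant peaks. Telencephalon 59 kept its whole list, so cutoffs differed. The weakest peak kept had a −log10 p-value of 3.44 there and of 4.94 to 8.81 in the other control libraries. With 3 libraries against 3, the smallest two-sided p of an exact permutation test is 0.1, so no single gene or list could reach 0.05 by that test.

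Sequences of 4 promoters, picked by hand from the regional factors, and of 4 distal peaks are shown first. They are on mm10, each over 300 bases and from 5′ to 3′. Capitals mark 3 motifs sought on both strands, the HOX-PBX letters TGATTNAT, the homeodomain core TAATTA and the E-box CAGCTG, whose matches may overlap one another. The promoter of Hoxa2, the hindbrain gene with peaks in brainstem libraries alone, lies at chr6:52164782-52165081 on the minus strand and holds 1 HOX-PBX match. Hoxa5, at chr6:52204538-52204837 on the minus strand, separated the regions at equal number. Nr2e1, at chr10:42583541-42583840 on the minus strand, separated on the telencephalon side at equal number. Emx2, at chr19:59458440-59458739 on the plus strand, was called in all 3 telencephalon libraries but also in 1 brainstem library with deposited lists. All 4 are RefSeq sequences of GRCm38.
Hoxa2: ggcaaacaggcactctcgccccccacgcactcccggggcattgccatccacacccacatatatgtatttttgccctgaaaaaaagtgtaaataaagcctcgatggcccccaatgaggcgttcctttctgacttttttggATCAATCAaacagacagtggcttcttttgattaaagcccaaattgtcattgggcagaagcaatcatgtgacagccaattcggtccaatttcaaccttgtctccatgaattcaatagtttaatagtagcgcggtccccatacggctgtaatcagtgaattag
Hoxa5: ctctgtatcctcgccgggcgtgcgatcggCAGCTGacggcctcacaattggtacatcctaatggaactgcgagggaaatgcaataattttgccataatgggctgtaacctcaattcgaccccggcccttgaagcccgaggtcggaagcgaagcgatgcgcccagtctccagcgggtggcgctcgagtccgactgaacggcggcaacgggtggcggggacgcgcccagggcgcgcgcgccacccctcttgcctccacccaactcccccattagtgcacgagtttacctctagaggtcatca
Nr2e1: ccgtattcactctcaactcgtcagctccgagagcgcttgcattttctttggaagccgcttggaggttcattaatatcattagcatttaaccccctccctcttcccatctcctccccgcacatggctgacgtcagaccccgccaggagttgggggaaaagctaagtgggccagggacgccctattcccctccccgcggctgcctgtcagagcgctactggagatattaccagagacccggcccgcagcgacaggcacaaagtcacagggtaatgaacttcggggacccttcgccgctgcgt
Emx2: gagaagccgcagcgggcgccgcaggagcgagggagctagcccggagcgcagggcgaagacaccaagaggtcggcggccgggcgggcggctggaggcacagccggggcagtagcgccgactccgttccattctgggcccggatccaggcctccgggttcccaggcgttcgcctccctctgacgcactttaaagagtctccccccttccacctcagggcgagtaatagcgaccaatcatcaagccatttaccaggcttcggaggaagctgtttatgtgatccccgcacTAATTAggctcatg
Peaks of the control lists lay over these exact windows in 3 deposited lists for Hoxa2, 2 for Hoxa5, 5 for Nr2e1 and 4 for Emx2.

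The distal sequences are the centres of the separating peak with the highest mean fold percentile on each side, with deposited lists and at equal number. They are given on the plus strand and named by the coding gene with the nearest start, which need not be their target. On the brainstem side they lie at chr9:50118693-50118992, nearest Rpl10-ps3, and at chr2:84289331-84289630, nearest Calcrl. On the telencephalon side they lie at chr10:23414324-23414623, nearest Eya4, and at chr3:49700366-49700665, nearest Pcdh18. The first holds 2 E-boxes, the second 1 homeodomain core and the others none of the 3 motifs.
Rpl10-ps3 distal: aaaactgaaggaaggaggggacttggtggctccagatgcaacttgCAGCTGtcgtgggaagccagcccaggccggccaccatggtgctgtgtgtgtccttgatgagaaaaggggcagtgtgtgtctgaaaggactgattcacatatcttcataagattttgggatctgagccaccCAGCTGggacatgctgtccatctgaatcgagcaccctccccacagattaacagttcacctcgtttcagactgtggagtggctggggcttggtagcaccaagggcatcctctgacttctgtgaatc
Calcrl distal: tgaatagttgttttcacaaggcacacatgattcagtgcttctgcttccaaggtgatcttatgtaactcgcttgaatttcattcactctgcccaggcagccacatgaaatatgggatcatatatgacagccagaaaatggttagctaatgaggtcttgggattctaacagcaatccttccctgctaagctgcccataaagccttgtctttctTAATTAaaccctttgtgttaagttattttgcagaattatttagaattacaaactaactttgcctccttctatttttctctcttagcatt
Eya4 distal: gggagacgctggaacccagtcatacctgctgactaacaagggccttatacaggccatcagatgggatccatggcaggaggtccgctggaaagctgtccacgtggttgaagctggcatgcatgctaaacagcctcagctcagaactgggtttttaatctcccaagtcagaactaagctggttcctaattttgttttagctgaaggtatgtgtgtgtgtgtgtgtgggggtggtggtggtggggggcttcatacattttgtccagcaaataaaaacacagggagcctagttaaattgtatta
Pcdh18 distal: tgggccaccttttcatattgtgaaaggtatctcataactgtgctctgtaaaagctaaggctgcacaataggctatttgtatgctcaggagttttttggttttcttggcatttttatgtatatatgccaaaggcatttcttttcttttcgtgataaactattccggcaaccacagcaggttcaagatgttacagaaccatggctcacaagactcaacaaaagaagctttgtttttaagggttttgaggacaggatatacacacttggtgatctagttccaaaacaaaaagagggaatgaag

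The labelled cell type was examined with a list of 20 OPC genes. Their promoters had peaks in 18, 17 and 20 genes in the brainstem libraries and in 19, 16 and 19 in the telencephalon libraries, and 16 were found in all 6. These included Pdgfra, the receptor used for panning, and Olig2 and Sox10, which specify the oligodendrocyte lineage. Cspg4, which encodes the NG2 proteoglycan of OPCs, had a promoter peak in brainstem 61 alone. Of 20 genes of mature oligodendrocytes, 11, 10 and 13 had peaks in brainstem and 11, 8 and 12 in telencephalon. In all 6 control libraries 8 of the 20 had a peak, among them Ugt8a and Fyn. Another 5 had none in any control library, among them the myelin genes Mog, Mag and Mobp. Lists of 10 genes each gave 8 to 10 astrocyte promoters in brainstem against 4 to 10 in telencephalon, 1 to 2 against 0 to 2 for microglia, 1 to 5 against 2 to 4 for endothelium, 6 to 7 against 4 to 9 for neurons and 3 to 5 against 1 to 3 for fibroblasts and pericytes. Of the 10 microglial genes 7 had no promoter peak in any of the 6 libraries, among them Cx3cr1, Csf1r and C1qa. For endothelium these were 5 of 10, among them Pecam1 and Cdh5, while 1 was called in all 6. Of all 22028 coding genes, 9748 to 14050 had a promoter peak per control library, 9388 in all 6 and 7361 in none. Many promoters were thus called whatever the cell type, and the list counts alone do not settle it. None of these lists passed a test between regions (exact permutation tests, p from 0.6 to 1, adjusted p = 1 over 13 lists), and their part in the regional differences was not tested.

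**Figure D1:**
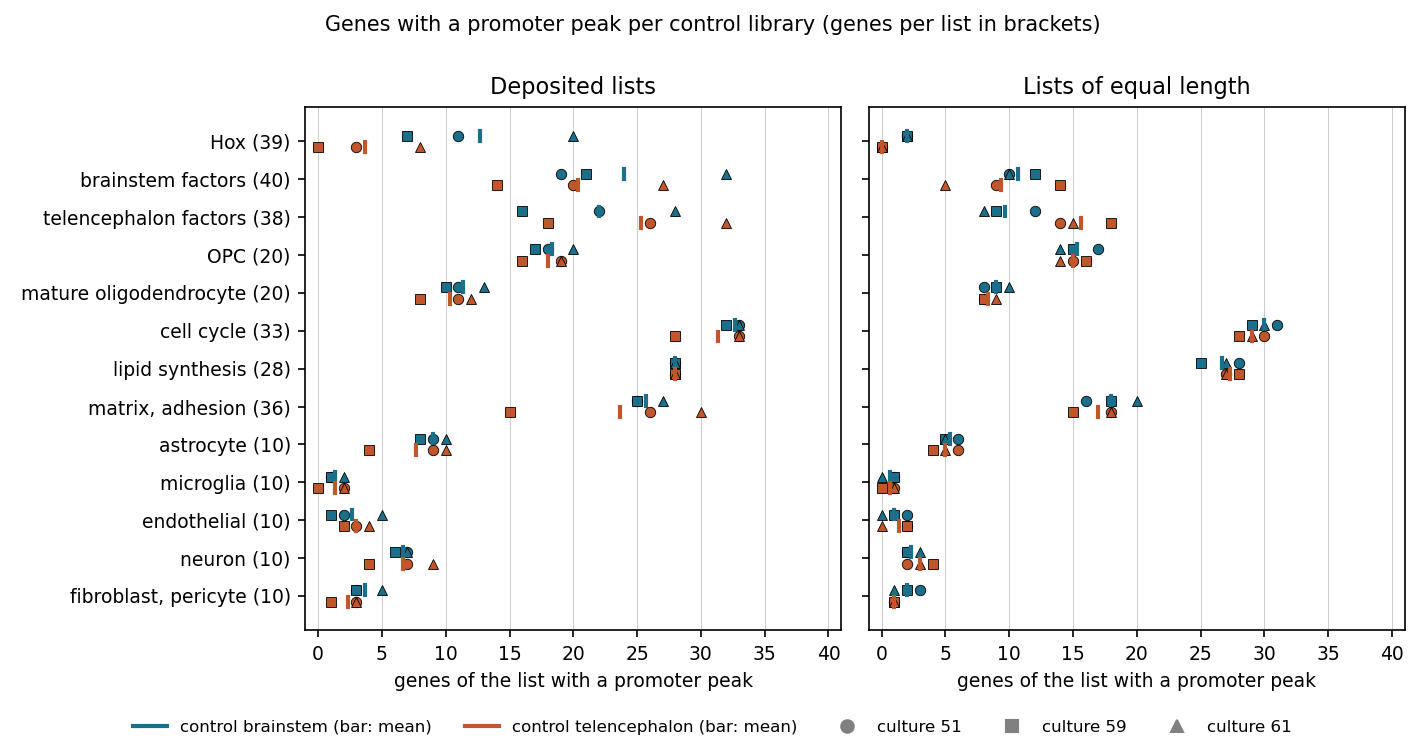
Genes with a promoter peak (x axis) in each control library for the 13 gene lists, with deposited lists and at equal number; symbols are the cultures, colours the regions and bars the means. Hox promoters numbered 7 to 20 in brainstem and 0 to 8 in telencephalon, and 2 and 0 in each library at equal number.

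Across 22028 protein-coding genes, the regions shared most promoter peaks. Brainstem libraries had 12427, 12250 and 14050 coding promoters and telencephalon libraries 12927, 9748 and 13746 (exact permutation test, p = 0.8). All 6 had 9388, and 7361 were found in none. Only 8 coding promoters separated with peaks in brainstem, 0.0363% of those examined, and 1 with peaks in telencephalon, 0.00454%. Promoters found in at least 2 more libraries of one region numbered 214 for brainstem (0.971%) and 80 for telencephalon (0.363%). The short list of telencephalon 59 limits the telencephalon side, since a promoter had to be called in it as well: without that library 33 coding promoters separated on the telencephalon side and 8 on the brainstem side.

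Hoxa2, which sets the identity of anterior hindbrain segments, and Hoxb2, its paralogue, were the patterning genes among the 8. The fold enrichment of Hoxa2 (ENSMUSG00000014704.10, chromosome 6, peak 52163999 to 52166211) over local background was 2.32, 2.16 and 2.09 in brainstem 51, 59 and 61, and no telencephalon library had a peak. Hoxb2 (ENSMUSG00000075588.6, chromosome 11, peak 96351412 to 96354692) had folds of 2.42, 2.58 and 2.33, again without a telencephalon peak. Both were weak peaks: their mean percentiles of fold within their own lists were 1.44 ± 1.07 and 6.81 ± 3.52 (SD, n = 3), where 100 is the strongest peak. Neither remained at equal number, when weak peaks drop out.

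The other 6 were not regional transcription factors. Ubxn10, a ciliary cofactor of the ATPase VCP, had the strongest peaks of the set, with folds of 2.79, 3.13 and 3.86. Gstp2, a glutathione transferase, had 3.23, 2.49 and 3.19, and Echdc2, a mitochondrial hydratase-like enzyme, 2.77, 2.77 and 3.44. Folds were 2.92, 2.56 and 2.75 for the calcium channel Trpv4, 2.49, 2.55 and 3.44 for Ghdc, and 2.49, 2.28 and 2.46 for the inward rectifier potassium channel Kcnj9. In the K27M libraries, Hoxa2 had a peak in 3 of 3 brainstem and 0 of 4 telencephalon cultures and Hoxb2 in 1 and 0. Ubxn10 and Echdc2 were each found in 2 of 3 and 3 of 4, Gstp2 and Trpv4 in 3 and 2, and Kcnj9 and Ghdc in 1 and 2, so of the 8 only Hoxa2 also separated the K27M cultures.

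At equal number, 36 coding promoters separated with peaks in brainstem (0.163%) and 52 with peaks in telencephalon (0.236%), and 329 (1.49%) and 399 (1.81%) were found in at least 2 more libraries of the respective region. Because neighbouring genes can share a peak, the 36 genes correspond to 34 distinct peaks and the 52 to 47. The number of coding promoters per library was then nearly the same, with 9929, 9480 and 9837 in brainstem and 9951, 9748 and 9833 in telencephalon. A promoter missing at equal number may still have had a weaker peak in the deposited list.

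Ranked by fold percentile, the brainstem side at equal number was led by genes of metabolism and transport. Cyp2d22, a cytochrome P450, had folds of 3.57, 3.88 and 4.05. Svop, a transporter-like protein of synaptic vesicles, had 3.48, 3.36 and 4.11, and Prkaa2, a catalytic subunit of the energy sensor AMPK, 3.52, 3.11 and 4.09. Gcfc2 had 3.38, 3.40 and 4.22. Next came Mrpl35, a protein of the mitochondrial ribosome, Vps33a, which acts in fusion with lysosomes, Enpp5, Rgr and the secreted protein Adamtsl2, with mean folds from 3.46 ± 0.28 to 3.54 ± 0.38. Svop was called at equal number in none of the 7 K27M libraries, whereas Cyp2d22 was called in 3 of 3 brainstem and 3 of 4 telencephalon ones.

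The telencephalon side at equal number was led by Slc35f4, a nucleotide sugar transporter family member, with folds of 3.70, 2.80 and 4.38 in telencephalon 51, 59 and 61. Dnah7a, an axonemal dynein, had 3.92, 2.77 and 4.18, and Ifih1, a cytosolic sensor of double-stranded RNA, 3.32, 2.95 and 4.06. Met, the receptor of hepatocyte growth factor, had 3.30, 3.08 and 3.62, and Tsc22d3, a glucocorticoid-induced regulator, 2.90, 3.12 and 4.29. Thegl, the chaperone family member Dnajb3, Edaradd, the phospholipid transporter Abcb4 and Tmem200a completed the first 10, with mean folds from 3.35 ± 0.69 to 3.41 ± 0.61. None of the 20 leading genes belongs to the regional lists below. Of the 36 brainstem-side promoters, 20 were found in a larger share of brainstem than telencephalon K27M libraries, and of the 52 telencephalon-side promoters, 22 in a larger share of telencephalon ones.

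The Hox family had the largest regional difference in promoters detected among the 13 lists with deposited peaks. Of 39 Hox genes, 11, 7 and 20 had promoter peaks in brainstem 51, 59 and 61, and 3, 0 and 8 in telencephalon 51, 59 and 61. The ranges overlap, since telencephalon 61 with 8 exceeds brainstem 59 with 7, and the difference in means of 9.0 did not reach the smallest p (exact permutation test, p = 0.2, adjusted p = 1 over 13 lists). Within each culture number the brainstem library had more, which gives p = 0.25, the smallest an exact test over 3 pairs allows. In the 7 genes found in at least 2 more brainstem libraries, 2 were called in 3 of 3 and 5 in 2 of 3, and no Hox gene was found in at least 2 more telencephalon libraries, beside 0.971% and 0.363% of all coding promoters.

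The Hox genes differed in how firmly they were called. Hoxa5, which acts at the level of the neck and upper trunk, had folds of 3.10, 3.19 and 3.25 in brainstem, and 2.37 and 2.49 in telencephalon 51 and 61. Every brainstem value lay above every telencephalon value, and telencephalon 59 had no peak. Hoxa4 was called in brainstem 51 and 59 with folds of 2.61 and 2.68, Hoxb3 in 51 and 61 with 2.47 and 2.61, Hoxa13 in 59 and 61 with 2.62 and 2.39, Hoxd9 in 59 and 61 with 2.71 and 2.51, and Hoxd12 in 51 and 61 with 2.62 and 2.44. Those 5 had no telencephalon peak. Hoxa13, Hoxd9 and Hoxd12 are posterior members of the family, known for roles in the trunk and limbs. Hoxc6 was the only Hox gene called in telencephalon libraries alone, with a fold of 2.50 in telencephalon 51.

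At equal number 2 Hox promoters remained in each brainstem library, Hoxa5 in all 3, and none in any telencephalon library (exact permutation test, p = 0.1, adjusted p = 0.65). In the K27M cultures, Hox promoters numbered 24, 11 and 9 in brainstem 41, 59 and 61 and 1, 8, 6 and 2 in telencephalon 41, 51, 59 and 61 with deposited lists, also without overlap. Hoxa5 was called at equal number in 1 of 3 brainstem and 0 of 4 telencephalon libraries. In lists limited to at most 2 times the length of the shortest, an alternative added after seeing the data, the means were 8.0 and 1.33 Hox promoters (exact permutation test, p = 0.1).

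**Figure D2:**
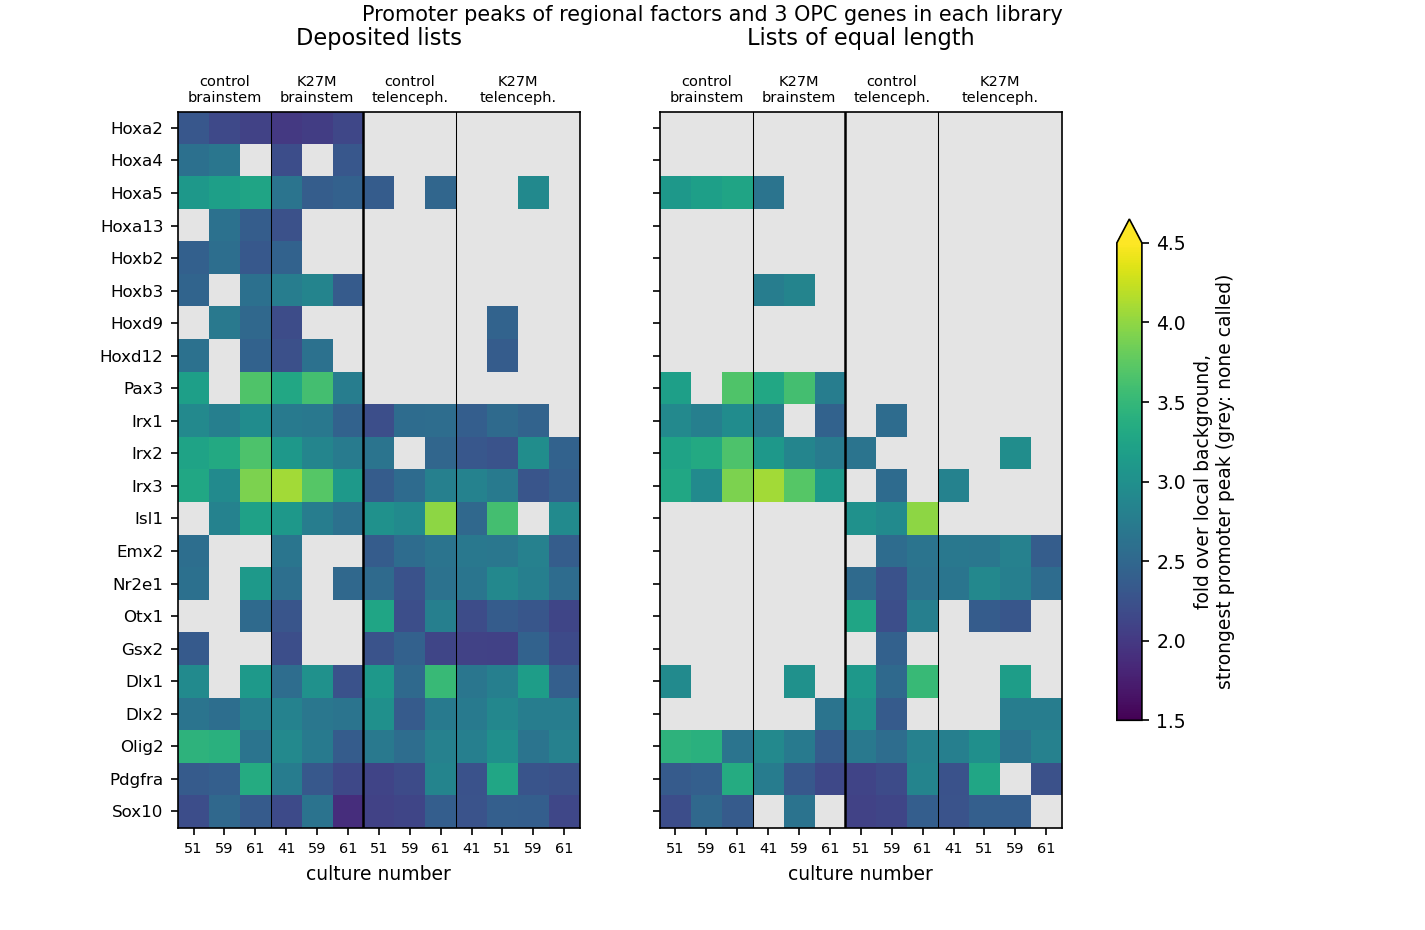
Fold enrichment over local background of promoter peaks of regional factors and 3 OPC genes (rows) in each control and K27M library by culture number (columns), with deposited lists and at equal number; the colour scale gives the fold of the strongest promoter peak, and grey is a promoter without a called peak. In deposited control lists Hoxa2 and Hoxb2 are coloured in the 3 brainstem columns alone, and Emx2, Otx1 and Gsx2 in all 3 telencephalon columns and 1 brainstem column.

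The Irx genes, 5 members of a list of 40 brainstem factors, did not share one order. Irx3 had folds of 3.29, 2.93 and 3.91 in brainstem 51, 59 and 61, and 2.37, 2.55 and 2.81 in telencephalon 51, 59 and 61. Irx1 had 2.91, 2.80 and 2.96 against 2.22, 2.56 and 2.57. For both, the lowest brainstem value lay above the highest telencephalon value, and their mean percentiles were 63.7 ± 17.7 against 23.6 ± 11.6 for Irx3 and 39.6 ± 7.50 against 14.2 ± 7.63 for Irx1 (SD, n = 3 each). Irx2 had 3.24, 3.32 and 3.66 against 2.66 and 2.49, without a peak in telencephalon 59. Irx6 overlapped between regions, with 2.82, 3.58 and 4.72 against 2.99, 2.70 and 3.20.

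Irx5, which lies in the same cluster as Irx3 and Irx6 on chromosome 8, had the opposite order. Its promoter peak (chr8:92355305-92358082 after merging) had folds of 2.68, 2.77 and 2.63 in brainstem and 2.84, 3.05 and 3.47 in telencephalon. As percentiles within each list these were 22.2, 26.9 and 21.7 against 60.0, 68.2 and 69.4, with no overlap and a difference of -42.2 ± 12.1 (SE, limma with culture number as block, unadjusted p = 0.00607, adjusted p = 0.897 over 13813 shared peaks). In the K27M libraries, which did not enter that comparison, percentiles were 43.9, 20.7 and 13.8 in brainstem 41, 59 and 61, and 82.4, 79.9, 96.4 and 85.0 in telencephalon 41, 51, 59 and 61. Again the regions did not overlap (two-sided exact permutation test over 35 arrangements, p = 0.0286, the smallest possible, adjusted p = 0.458 over the named shared peaks). Control percentiles at equal number were 4.02, 6.97 and 1.37 against 21.9, 68.2 and 26.2, and the K27M libraries again gave an exact p = 0.0286 (adjusted p = 0.515).

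The 40 brainstem factors as a list had 19, 21 and 32 promoters in brainstem and 20, 14 and 27 in telencephalon (exact permutation test, p = 0.6). Of the 13 found in all 6 libraries, 4 had brainstem percentiles that lay above all telencephalon ones, Irx1, Irx3, Lmx1a and Nkx6-1, and Irx5 had the reverse. Over all 9388 coding promoters found in all 6, 4.91% were without overlap and higher in brainstem and 2.11% higher in telencephalon. Lmx1a, a homeodomain factor of the roof plate and midbrain floor, had mean percentiles of 55.9 ± 7.59 and 24.9 ± 12.9. Nkx6-1, a ventral patterning factor, had 38.5, 49.0 and 29.6 in brainstem against 8.14, 13.1 and 20.9. The median difference was 13.5 percentile points over the 13 and 2.92 over all coding promoters. At equal number, 4 of the list were in all 6 libraries with a median difference of -0.324 and of these Irx5 alone was without overlap, beside 4.81% of 7377 coding promoters higher in brainstem and 5.79% higher in telencephalon, so the 13.5 was not seen at that setting.

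Pax3, a dorsal neural tube factor, was the factor found in at least 2 more brainstem libraries, with folds of 3.19 and 3.67 in brainstem 51 and 61 and no peak elsewhere among controls. In K27M libraries it was called in 3 of 3 brainstem and 0 of 4 telencephalon cultures, with folds of 3.30, 3.60 and 2.77. At equal number, Irx1, Irx2, Irx3 and Pax3 were found in at least 2 more brainstem libraries, 4 of 40 beside 1.49% of all coding promoters, and Isl1, a LIM homeodomain factor of motor and other neurons, separated on the telencephalon side, 1 of 40 beside 0.236%. In the deposited lists Isl1 had peaks in brainstem 59 and 61 too, with folds of 2.83 and 3.22 against 3.02, 2.93 and 3.99, and none of the K27M lists held it at equal number.

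On the telencephalon side the list of 38 forebrain factors had 22, 16 and 28 promoters in brainstem and 26, 18 and 32 in telencephalon (exact permutation test, p = 0.7). The counts at equal number were 12, 9 and 8 against 14, 18 and 15, which do not overlap (exact permutation test, p = 0.1, adjusted p = 0.65). In all, 5 of its genes were found in at least 2 more telencephalon libraries at equal number, Emx2, Nr2e1, Otx1, Dlx1 and Dlx2, and none in at least 2 more brainstem libraries. That is 5 and 0 of 38 beside 1.81% and 1.49% of all coding promoters.

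Emx2, which patterns the cortex and hippocampus, had folds of 2.37, 2.56 and 2.66 in telencephalon and a single brainstem peak of 2.58 in culture 51. Otx1, a forebrain and midbrain homeodomain gene, had 3.26, 2.22 and 2.80 in telencephalon and 2.54 in brainstem 61. Gsx2, which specifies ventral telencephalic progenitors, had 2.27, 2.43 and 2.13 in telencephalon and 2.35 in brainstem 51. In these genes the single brainstem value lay within the telencephalon range, so the difference seen is in the number of lists with a peak. Libraries without a called peak have no fold, so a difference in fold is not excluded. The K27M libraries gave each of Emx2, Otx1 and Gsx2 a peak in 1 of 3 brainstem and 4 of 4 telencephalon lists.

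Nr2e1, a nuclear receptor of forebrain neural stem cells also called Tlx, separated at equal number with folds of 2.54, 2.26 and 2.63. Deposited lists also had it in brainstem 51 and 61 with 2.61 and 3.12. At equal number it was called in 0 of 3 brainstem and 4 of 4 telencephalon K27M libraries, and Otx1 in 0 and 2. Dlx1, of ventral forebrain interneuron progenitors, had 3.10, 2.53 and 3.52 in telencephalon and 2.93 in brainstem 51 at equal number, and Dlx2, its neighbour on chromosome 2, had 3.00 and 2.36 in telencephalon 51 and 59. Nr2f2, the nuclear receptor COUP-TFII, had mean percentiles of 6.04 in brainstem and 16.5 in telencephalon at equal number, without overlap. It was 1 of 6 forebrain factors shared at that setting, beside 5.79% of all coding promoters higher in telencephalon. Of the 10 shared with deposited lists none was without overlap. Lhx2, a forebrain selector gene, had promoter peaks in all 6 deposited lists with overlapping folds.

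The lists of OPC, cell cycle, lipid and matrix genes showed few members with a regional order. Sox6, which holds OPCs in the immature state, had percentiles of 92.8, 93.3 and 91.5 in brainstem and 82.9, 72.1 and 87.3 in telencephalon, and at equal number 86.3, 87.6 and 73.5 against 63.5, 72.1 and 66.0. The regions did not overlap at either setting. In K27M libraries they did, with 86.2, 85.3 and 73.6 in brainstem and 81.7, 86.4, 56.8 and 79.8 in telencephalon. Of the 16 OPC promoters in all 6 deposited lists no other was without overlap, which is 1 of 16 beside 4.91% of all coding promoters higher in brainstem. At equal number Lhfpl3, an OPC-enriched membrane protein, was higher in telencephalon, with means of 16.6 ± 19.4 and 46.3 ± 2.46, so that of 14 OPC promoters then in all 6 lists 1 lay higher in each region, beside 4.81% in brainstem and 5.79% in telencephalon.

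Of 33 cell cycle genes, 32 to 33 had promoter peaks in brainstem and 28 to 33 in telencephalon. Ccne2, cyclin E2 of the entry into S phase, had percentiles of 25.0, 15.1 and 54.7 in brainstem and 69.2, 77.4 and 73.6 in telencephalon, and at equal number 4.93, 3.33 and 9.14 against 35.8, 77.4 and 33.8. Telencephalon was thus above brainstem in every library at both settings, while the K27M regions overlapped. Cdc6, a licensing factor of replication, had the reverse order in deposited lists, at 71.5 ± 4.51 against 61.7 ± 2.08. At equal number the G1 cyclin Ccnd3 was higher in telencephalon and the cell cycle inhibitor gene Cdkn2a higher in brainstem, at 1.33 ± 0.348 against 7.23 ± 3.99 and 79.8 ± 3.51 against 64.4 ± 11.3. Without overlap were thus 1 promoter in each direction of 28 shared in deposited lists, beside 4.91% higher in brainstem and 2.11% in telencephalon over all coding promoters. Of 24 shared at equal number 1 was higher in brainstem and 2 in telencephalon, beside 4.81% and 5.79%. Cdk6 was called in 2 telencephalon and no brainstem libraries at equal number, and E2f2 in 3 brainstem and 1 telencephalon library. That is 1 of 33 on each side, beside 1.81% of all coding promoters for telencephalon and 1.49% for brainstem.

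All 28 genes of lipid synthesis had a promoter peak in each of the 6 deposited lists. Hmgcs1, an early enzyme of cholesterol synthesis, had percentiles of 84.8, 83.1 and 82.8 in brainstem and 92.9, 89.8 and 89.7 in telencephalon, and Elovl5, a fatty acid elongase, 70.4, 78.0 and 83.0 against 85.6, 89.5 and 85.3. Both lay higher in telencephalon without overlap at both settings. Gpam, of glycerolipid synthesis, was higher in telencephalon in the deposited lists, with 32.7 ± 18.8 against 62.9 ± 13.8, so that 3 of the 28 lay higher in telencephalon and 1 in brainstem without overlap, beside 2.11% and 4.91% of the 9388 coding promoters in all 6 deposited lists. At equal number 25 of the 28 were in all 6 lists, of which 4 lay higher in telencephalon without overlap, Hmgcs1, Msmo1, Elovl5 and Fads2, and none in brainstem. That is 4 of 25 beside 5.79% of all coding promoters at that setting, in a list chosen with results of these cultures known, and the median difference was -2.08 percentile points beside -0.691 over all.

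Matrix and adhesion genes numbered 25, 25 and 27 with promoter peaks in brainstem and 26, 15 and 30 in telencephalon, of 36. Of these, Itga3, an integrin subunit for laminins, was called in 3 brainstem libraries and in telencephalon 61. At equal number Col4a1 and Col4a2, which encode basement membrane collagens and share 1 peak, were called in brainstem 59 and 61 alone, Bcan, a proteoglycan of the brain matrix, in 3 brainstem and 1 telencephalon library, and Fn1, fibronectin, in 1 and 3. These are 3 of 36 on the brainstem side beside 1.49% of all coding promoters and 1 on the telencephalon side beside 1.81%. Lamc1, a laminin subunit, had deposited percentiles of 85.9 ± 3.36 and 78.2 ± 3.30, the 1 without overlap of 15 shared, beside 4.91% higher in brainstem over all. Of mature oligodendrocyte genes, Ugt8a and Fyn were higher in telencephalon at equal number, at 49.5 ± 9.18 against 69.0 ± 4.57 and 15.8 ± 4.64 against 29.4 ± 2.92, and none of the 8 shared at the deposited setting was without overlap. Ugt8a and Fyn are 2 of the 7 shared at equal number, beside 5.79% of all coding promoters. Kcnj8, a pericyte marker, was higher in brainstem, at 84.1 ± 13.4 against 53.0 ± 10.5, and at equal number the astrocyte genes Gfap and Sox9 were, at 28.0 ± 3.43 against 16.5 ± 1.70 and 43.9 ± 2.94 against 19.6 ± 14.4. These are 1 of 1 shared pericyte promoter beside 4.91% of all coding promoters in the deposited lists, and 2 of 3 shared astrocyte promoters beside 4.81% at equal number. The third shared astrocyte promoter went the other way, with overlap, at a difference of -25.1 percentile points (brainstem minus telencephalon). The part of other cell types in these values was not tested.

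Peaks found in all 6 control lists were compared by fold percentile. None of 13813 merged peaks passed the regional test (limma with culture number as block, 0 calls, 0%, smallest adjusted p = 0.897), and 436 had an unadjusted p under 0.05 (3.16%), of which 329 were higher in brainstem and 107 in telencephalon. That split follows the scale, with 340 and 326 when folds were ranked among shared peaks alone and 383 and 478 on centred log2 fold. At equal number none of 9819 did (0 calls, 0%, smallest adjusted p = 0.832), with 495 at an unadjusted p under 0.05 (5.04%), 218 and 277 by direction. The deposited differences ranged from -46.7 to 65.6 percentile points around a median of 2.61, and the median SE of 11.7 is several times that shift. With library quality weights 6 peaks passed, 4 higher in brainstem and 2 in telencephalon (smallest adjusted p = 0.0292).

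**Figure D3:**
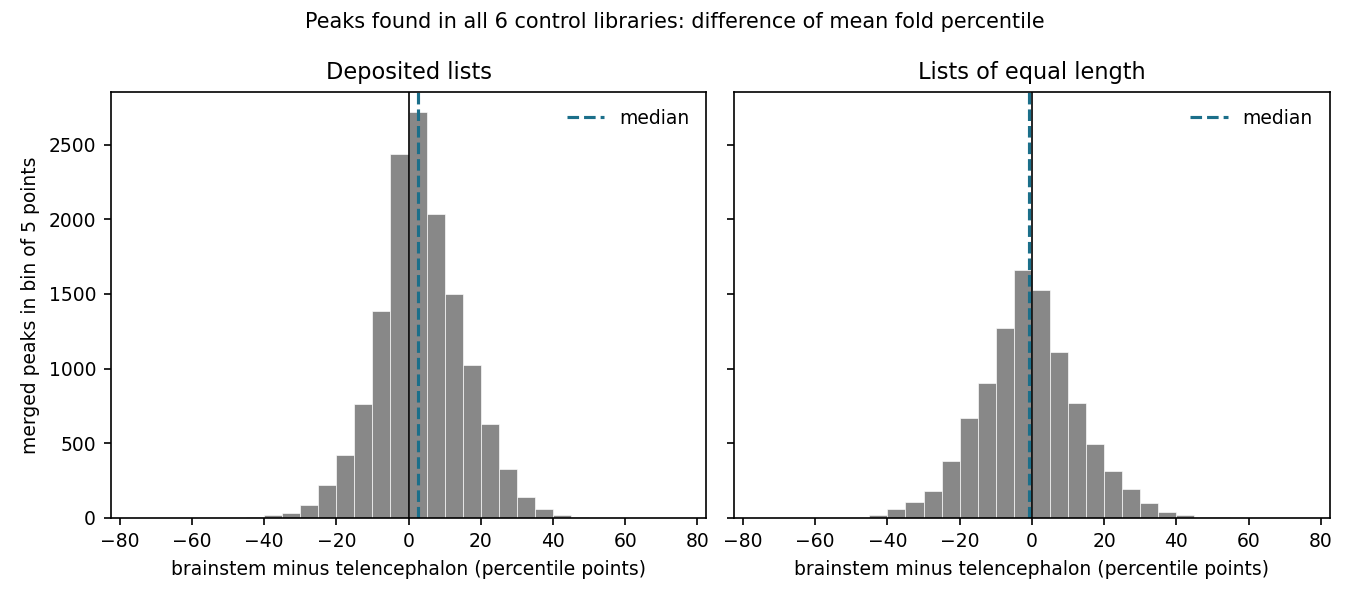
Differences in fold percentile, brainstem minus telencephalon, over peaks found in all 6 control lists, with deposited lists and at equal number. The deposited distribution is centred at 2.61 and the equal number one at -0.885 percentile points, with dashed lines at these medians, and no peak passed the adjusted threshold without library weights.

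The peak with the largest difference in deposited lists lay within Tnr, 63541 bp from its start; the gene encodes the matrix glycoprotein tenascin-R (chr1:159587382-159588794). Its percentiles were 81.5, 92.1 and 89.2 in brainstem and 43.6, 6.76 and 15.8 in telencephalon, a difference of 65.6 ± 14.7 (SE). The K27M libraries did not keep that order, with 90.4, 66.8 and 44.6 in brainstem and 70.2, 85.9 and 81.6 in telencephalon, where culture 59 had no peak there. The promoter of Tnr itself had overlapping folds of 3.47, 2.82 and 4.62 against 3.40, 3.37 and 4.08. The promoter peak of Dmwd ranked first toward brainstem at equal number, with 92.7, 82.1 and 60.8 against 9.25, 2.75 and 14.2 there and 96.2, 90.3 and 87.2 against 45.2, 2.75 and 59.4 in deposited lists. Other peaks ranked toward brainstem in deposited lists lay at the promoters of Sufu, a repressor of Hedgehog signalling (43.4 ± 22.9 against 5.41 ± 0.424), Ppp1cc, a protein phosphatase catalytic subunit (53.5 ± 8.93 against 13.6 ± 7.65), Samd1, and Ehbp1l1 with Fam89b, and near Hunk, Prrc2b, Camta1 and Klhl35.

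Toward telencephalon the first was the promoter of P2ry2, a receptor for extracellular nucleotides, with 3.88, 3.88 and 11.4 in brainstem against 43.9, 73.6 and 41.7, and Irx5 was the next. Zbtb20, a repressor that acts in hippocampal development and gliogenesis, had 6.41, 3.35 and 5.11 against 48.6, 9.78 and 55.2. The others lay at Ostc and Stx2 and near Zcchc24, Mitf, A230072I06Rik, Eef1a1 and Atp9b. At equal number the leading peaks toward brainstem were those of Dmwd, Capg, Dse and Plpp7 and those near Gnaz, Lmo4, Twsg1, Myo1e, Lpar4 and Scarf2, and toward telencephalon those of Ostc, Ccne2, Irx5, Galnt17, Pou2f1 and Snapc3 and those near Chd7, Atp9b, Cep78 and Abt1. Of the named deposited peaks found in all K27M libraries, 6 of 8 toward brainstem and 7 of 8 toward telencephalon had the same direction in K27M cultures, and at equal number 4 of 8 and 6 of 10. Irx5 was the only one of them whose K27M libraries reached the smallest exact p. The difference of the regional effect between control and K27M cultures was tested over 13075 peaks found in all 13 lists, and none passed (limma, smallest adjusted p = 1.00, 316 at an unadjusted p under 0.05).

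Separating distal peaks outnumbered separating promoters. Of 50174 distal merged peaks found in at least 1 deposited control list, 208 separated with peaks in brainstem (0.415%) and 20 with peaks in telencephalon (0.0399%), and of 13516 at equal number, 129 (0.954%) and 69 (0.511%). The brainstem excess turned without the short list of telencephalon 59, when the deposited counts were 212 for brainstem and 605 for telencephalon. Among the 208, 104 were intergenic, 87 lay in an intron and 17 met an exon, and among the 129 these were 56, 60 and 13. The telencephalon peaks divided into 6, 11 and 3 with deposited lists and 27, 33 and 9 at equal number. Median distances to the nearest coding start ran from 26288 to 33033 bp over these 4 sets, and no gene was nearest to more than 2 peaks of a set, so the sets do not gather at single loci.

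With deposited lists, the brainstem peaks of highest percentile were chr9:50118371-50119314, in the intergenic region nearest Rpl10-ps3, with folds of 3.64, 3.24 and 4.69, chr17:79500833-79502203 nearest Rmdn2 with 4.05, 3.12 and 4.31, and chr12:15758508-15759995 nearest Trib2, a pseudokinase, with 3.72, 3.35 and 3.78. Introns of Cep112 and Aig1 held the next. The K27M lists had these 5 in 2 or 3 of 3 brainstem and 2 or 3 of 4 telencephalon cultures. On the telencephalon side the peak nearest Eya4, a transcriptional coactivator and phosphatase, had folds of 3.09, 3.12 and 4.32 (chr10:23413938-23415010). The peak nearest Pik3cg had 3.32, 3.04 and 3.61, and one in an intron of App, the amyloid precursor gene, 3.44, 3.19 and 3.25. Introns of Clstn2, a synaptic adhesion protein, and Mef2c, a factor of cortical neuron development, held the others. Eya4 and Pik3cg peaks were in 1 of 3 brainstem and 4 of 4 telencephalon K27M lists.

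At equal number the brainstem side was led by chr2:84289041-84289920, 85438 bp from Calcrl, with folds of 4.43, 4.53 and 4.62, followed by peaks nearest Mterf1b and Gm5447 and in an intron of Maml3, a Notch coactivator. The Gm5447 peak (4.07, 4.20 and 4.49) was in 3 of 3 brainstem and 0 of 4 telencephalon K27M lists. The telencephalon side was led by chr3:49699672-49701360, 54104 bp from the protocadherin gene Pcdh18, with 3.68, 3.50 and 5.45, followed by a peak nearest Cdh11, a cadherin, with 3.26, 3.62 and 4.54. Introns of Fam189a1, Adamts3 and Nrxn3, a presynaptic adhesion gene, held the next, and the Nrxn3 peak was in 1 of 3 brainstem and 4 of 4 telencephalon K27M lists.

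Separating distal peaks were then followed in the 7 K27M libraries, which had no part in choosing them but come from cultures of 41, 51, 59 and 61 and so share numbers, and perhaps litters, with the controls. At equal number, 139 of 198 (70.2%) were found in a larger share of K27M libraries of the same region, 41 of the other and 18 in equal shares. The mean difference in that share, signed toward the control direction, was 0.23 (one-sided exact permutation over 35 arrangements, p = 0.0286, the smallest possible, adjusted p = 0.114 over 4 tests). The share of brainstem-side peaks called was 75.2%, 54.3% and 54.3% in K27M brainstem 41, 59 and 61, and 50.4%, 42.6%, 31.0% and 41.9% in K27M telencephalon 41, 51, 59 and 61. Telencephalon-side peaks had 18.8%, 27.5% and 31.9% in the brainstem and 46.4%, 59.4%, 44.9% and 69.6% in the telencephalon libraries. The regions did not overlap for either set, whereas all distal peaks of controls were called at 45.4% to 46.6% in K27M brainstem and 44.0% to 50% in K27M telencephalon.

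**Figure D4:**
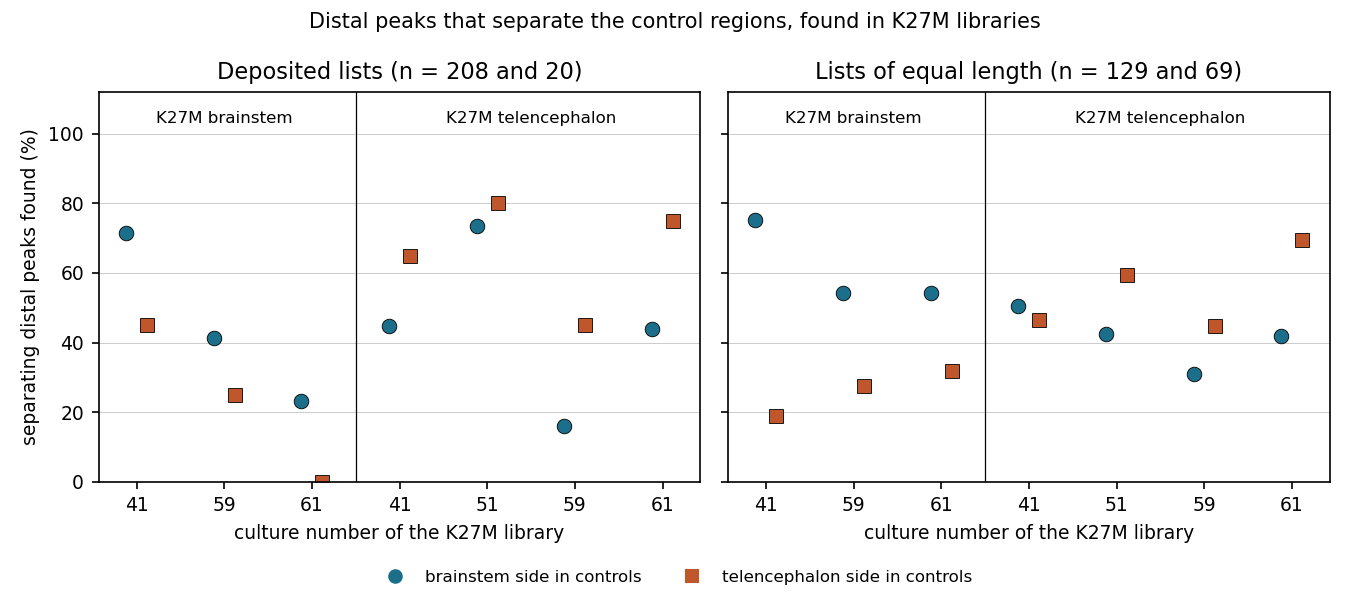
Share of the distal peaks separating control brainstem from control telencephalon that was called in each K27M library, by side. At equal number, K27M brainstem libraries had 54.3% to 75.2% of brainstem-side and 18.8% to 31.9% of telencephalon-side peaks, and K27M telencephalon libraries 31.0% to 50.4% and 44.9% to 69.6%.

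With deposited lists the 228 separating distal peaks were found in the same direction in 115 cases (50.4%), with a mean difference of 0.0457 (one-sided exact p = 0.343). The sides differed in their counts: of 20 telencephalon-side peaks 17 were in the same direction, 3 equal and none opposite, and of 208 brainstem-side peaks 98 were in the same direction and 92 opposite. The share of brainstem-side peaks called was lowest, 15.9%, in a telencephalon list of 30248 peaks and highest, 73.6%, in a telencephalon list of 52164. K27M brainstem 41, 59 and 61, with lists of 48487, 34168 and 27768 peaks, called 71.6%, 41.3% and 23.1%. All distal peaks of controls were called at 24.2% to 52.1% in the K27M libraries with deposited lists. Separating coding promoters gave 42 of 88 in the same direction at equal number (mean difference 0.0852, one-sided exact p = 0.0571, adjusted p = 0.114) and 5 of 9 with deposited lists (0.278, p = 0.114, adjusted p = 0.152).

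Complete separation in both genotypes was rarer. Of the 198 distal peaks at equal number, 17 separated the K27M regions in the same direction, 11 for brainstem and 6 for telencephalon, and 1 in the opposite. The share of all distal peaks or promoters that separated the K27M regions is not given here, so the counts of this paragraph have no background beside them. The brainstem ones, named here after their values were seen, included chr1:111354846-111355929, nearest Cdh19, an adhesion gene of glia, with a mean fold of 4.07 ± 0.39, chr7:70350473-70351654, 3583 bp from Nr2f2 (3.24 ± 0.40), and peaks nearest Tmeff2 and Fign. The telencephalon ones included peaks in introns of Arhgap21 and Ralgapa2 and over exons of Nav3 and Tom1l2. With deposited lists 4 did so, those in introns of Xkr6 and Esrrg for brainstem and those nearest Tmtc4 and Lurap1l for telencephalon. Among coding promoters at equal number 5 did so. Among these were Tbc1d13 for brainstem and Nr2e1 for telencephalon.

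The sequences of separating distal peaks were described by 8 short motifs in their central 300 bp, on both strands and with no test. At equal number the E-box CAGCTG, the form bound by many bHLH factors, was in 43.4% of the 129 brainstem-side centres (95% Wilson interval 35.2 to 52.0), in 20.3% of the 69 telencephalon-side ones (12.5 to 31.2) and in 27.6% of all distal centres. With deposited lists these were 32.7% (26.7 to 39.3), 15.0% (5.24 to 36.0) and 21.5%. The homeodomain core TAATTA was in 4.65% (2.15 to 9.78) of brainstem-side, 14.5% (8.07 to 24.7) of telencephalon-side and 8.76% of all centres at equal number, and in 6.73%, 30.0% (14.5 to 51.9) and 8.74% with deposited lists. Brainstem-side centres thus held the E-box more often and the homeodomain core less often than telencephalon-side ones at both settings, with intervals that overlap for the E-box with deposited lists and for the homeodomain core at equal number. The HOX-PBX letters TGATTNAT were in 3.10%, 5.80% and 4.49% of centres at equal number, and in 2.65% of 20150 coding promoters.

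**Figure D5:**
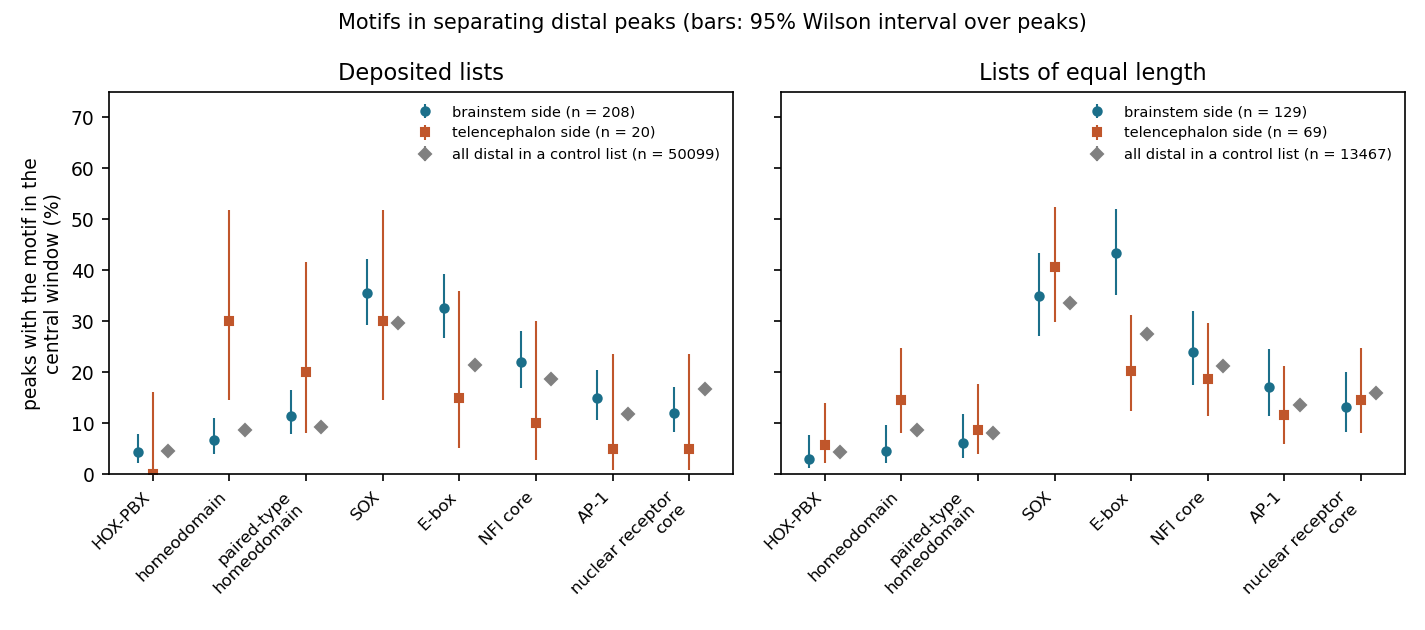
Share of distal peak centres (300 bp) with each motif, for brainstem-side and telencephalon-side separating peaks and for all distal peaks of the control lists; bars are 95% Wilson intervals. The E-box is in 43.4% of brainstem-side and 20.3% of telencephalon-side centres at equal number, and the homeodomain core in 4.65% and 14.5%.

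The other 5 motifs were the SOX-like ACAAAG, the NFI core TTGGCA, the AP-1 site TGANTCA, the paired-type homeodomain site TAATCC and the nuclear receptor core AGGTCA. At equal number the brainstem and telencephalon intervals overlapped for each of them, with ACAAAG in 34.9% and 40.6% of centres, TTGGCA in 24.0% and 18.8%, and TGANTCA in 17.1% and 11.6%. Base composition of the central 300 bp was close. Median GC of these centres at equal number was 49.3% for brainstem-side, 47.7% for telencephalon-side and 48.0% for all distal peaks. With deposited lists it was 46.5%, 46.0% and 46.7%. The peaks of a set come from the same 3 libraries, and a Wilson interval reflects only how many peaks were drawn, so variation from culture to culture is outside it.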

How the data were processed

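ATAC-seq was performed on 13 OPC cultures, of which the 6 control ones (3 brainstem, 3 telencephalon) were compared. Groups came from the labels, and the gene lists, motifs and rules were chosen with earlier results of these data known. Reads had been processed by the authors with the nf-core ATAC-seq pipeline, and the submitters' processing notes name bcl2fastq 2.20.0.422, cutadapt 3.4, Trim Galore 0.6.7, BWA 0.7.17-r1188, MACS2 2.2.7.1 and deepTools 3.5.4, with mm10. The study states a broad peak cutoff for its ChIP-seq, and whether it also held for these ATAC-seq lists is not given in the sources used here. The deposited lists, 1 per library, hold for each peak a fold enrichment over local background, a −log10 p-value, a −log10 q-value and a display score, all from the authors' peak caller. Replicates were not pooled. Read counts are not used here, so depth and its intervals are unknown, and long lists detect more.

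Peaks of all 13 lists were merged where they overlapped by 1 bp or more, giving 99746 merged peaks (30041 at equal number), and were assigned to 55536 GENCODE M21 genes, 22028 of them coding, by a promoter window of 2 kb before to 1 kb after any transcript start. Equal number kept the 16879 peaks of smallest p per list. Fold was compared as a percentile within its own list, by limma 3.58.1 (R 4.3.3) with the culture number as a block and Benjamini-Hochberg adjustment. The study accounts for matched cultures between conditions where possible, but the matched pairs it describes are control and K27M cultures of a region, and that both regions under a number come from 1 litter is not stated. The step was tested on simulated data. Single values were compared by two-sided exact permutation tests over 20 arrangements, adjusted over 13 lists of 303 genes in all. The test over arrangements of the K27M libraries was added after seeing the data. P-values measure the spread between cultures made from pooled pups. Named genes were, per side and setting, the 10 separating promoters and 5 separating distal peaks of highest mean percentile, the 10 shared peaks of smallest p in each direction, and list members that separated, were found in at least 2 more libraries of a region or did not overlap. Some genes are not reported here. Python 3.11.15, numpy 2.4.6, pandas 2.3.3, scipy 1.17.1 and matplotlib 3.10.9 were used. Promoter sequences are from RefSeq GRCm38.p6 (250 bases before to 50 after a start). Alternatives were a p of at most 1e-10, a promoter of 500 bp each side, other merging and scaling, distal peaks at least 5 kb away, no block, library weights and leaving out each library.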

Additional observations from a re-analysis of the deposited data

Results flagged for a closer look

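A distal peak at chr11:16176304-16176870, in the intergenic region 80854 bp from the start of Vstm2a, had opposite regional order in the 2 genotypes at equal number. In controls it was called in the 3 brainstem libraries, with folds of 3.55, 3.83 and 4.39, and in no telencephalon library. In K27M cultures it was called in 4 of 4 telencephalon libraries, with folds of 3.34, 4.49, 3.44 and 3.93, and in 0 of 3 brainstem libraries. The difference was not tested, and the peak was found among 198 that separated the control regions.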

How the results depend on the processing

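Depth is unknown and list length limits every count. The 9 separating coding promoters (8 brainstem, 1 telencephalon) became 88 (36 and 52) at equal number, 5 (5 and 0) with peaks of p at most 1e-10 and 14 (11 and 3) with a promoter of 500 bp each side, and 20 to 129 without any one library, lowest without telencephalon 51 (18 and 2) and highest without telencephalon 61 (122 and 7), with more on the telencephalon side without brainstem 61 (11 and 38) or telencephalon 59 (8 and 33). The 228 separating distal peaks (208 and 20) became 6 (6 and 0) at p of at most 1e-10 and 436 to 1058 without any one library, with 269 and 167 without brainstem 61. Each omission moved both counts by over 1.5 times. Calls among shared peaks remained 0 except for 6 with library quality weights (smallest adjusted p = 0.0292), and none of the interaction fits gave a call. The difference in Hox promoters of 9.0 stayed positive, from 5.33 to 11.8 without any one library, while that of brainstem factors turned from 3.67 to -0.333 without brainstem 61 and ranged up to 7.0, and that of telencephalon factors ran from -7.0 to 0.0, the last without telencephalon 61.

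For distal peaks followed in K27M libraries with deposited lists, the mean difference of 0.0457 ran from -0.0647 to 0.171. It reversed to -0.0336 without control brainstem 51, -0.0191 without control telencephalon 61, -0.0647 without K27M brainstem 41 and -0.0351 without K27M telencephalon 59, and was 0.171 without control telencephalon 59 (exact permutation p = 0.0286). At equal number 0.23 ran from 0.13 to 0.263, with p at the smallest possible value in each case (0.0667 or 0.05 without a K27M library). The cause of these changes was not tested.

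Same-numbered cultures had correlated deviations of 0.0641, 0.107 and 0.192 over 13813 peaks against -0.0001 or less between numbers. Deviations were taken from the mean of each region, which ties the negative values to the positive ones, so the contrast is no separate observation. Not every pair passed 0.1, so the numbers are not shown to pair the regions. Without the replicate block the shared-peak calls were 0 as well (smallest adjusted p = 0.999987, 216 peaks at an unadjusted p under 0.05 against 436), and the paired exact p of the Hox, brainstem and telencephalon factor counts was 0.25, 0.5 and 0.25.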
